A study of Mus musculus with 22 samples.

Results

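The genes on either side of the floxed Sox9 locus were examined in mouse urogenital sinus epithelium, a fetal tissue that gives rise to the prostate in males. A list of 8 entries was looked up among probe sets with a single gene symbol. Of these, 7 were found, Abca5, Map2k6, Kcnj16 and Kcnj2 on one side of Sox9 and Slc39a11, Sstr2 and Cog1 on the other. The entry Cdc42ep4_placeholder_none is no gene symbol and matched no probe set. The 7 genes stand against 30142 genes with a single-symbol probe set, of which 19067 were bright enough to be tested, 5 of the 7 among them. Each of the 7 was read by 1 probe set.

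The 22 arrays held tissue of C57BL/6J fetuses at E16.75, freed from the mesenchyme with enzymes and from bladder and urethral epithelium. The 6 male and 5 female knockouts had 1 Shh allele with Cre and 2 floxed copies of Sox9 (ShhCre/+; Sox9fl/fl). Controls were littermates without Cre and with 1 floxed Sox9 copy (Shh+/+; Sox9+/fl), 6 males and 5 females. All groups therefore carried at least 1 floxed allele. The knockouts differed from the controls in Cre, in the Shh allele that carries it, in the number of floxed alleles and in Sox9. These differences go together and cannot be told apart here. Cre stood under control of the Shh locus, so recombination takes place in cells that express Shh or descend from such cells. The titles call the replicates biological, but no label says whether an array held 1 fetus or a pool, nor which arrays share a litter. The p-values therefore measured the spread between these arrays.

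Sox9 encodes a transcription factor with an HMG box and lies in a stretch of the chromosome with few protein-coding genes, across which distant enhancers act on it. Kcnj2 and Kcnj16, its nearest protein-coding neighbours on one side, are known to occupy a separate regulatory domain, and changes of the boundary between the domains are known from limb and skeletal malformations. The comparisons below ask whether the neighbours differed between genotypes, in males and in females.

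The region has 2 features of gene arrangement that can matter for reading the values. In RefSeq (GRCm38.p6) the gene Sstr2 lies within the span of Slc39a11, on the opposite strand, and Cog1 starts 563 bases inside the farther start of Slc39a11 on the opposite strand, so that the beginnings of both genes overlap. Whether the probe sets read 1 strand, and whether any probes lie where the genes overlap, is not given in the sources used here. Without strand, signal from a stretch shared by both genes could not be assigned to either. All 7 genes had entries in the RefSeq promoter table, with 13 start sites among them. The 250 bases before the start are shown for Abca5, the member with the largest differences between groups, and for the overlapping neighbours Cog1 and Slc39a11, each of whose windows lies inside the span of the other gene. They are written 5′ to 3′ on the strand of the gene, and capitals mark matches to the GC box motif GGGCGG on either strand.
Abca5 (chr11:110337717-110337966, minus strand): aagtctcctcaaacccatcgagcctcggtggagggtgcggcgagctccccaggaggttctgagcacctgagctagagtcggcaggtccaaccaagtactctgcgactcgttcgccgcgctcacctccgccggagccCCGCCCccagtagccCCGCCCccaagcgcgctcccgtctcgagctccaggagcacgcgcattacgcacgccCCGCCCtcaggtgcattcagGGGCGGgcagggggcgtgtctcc
Cog1 (chr11:113649279-113649528, plus strand): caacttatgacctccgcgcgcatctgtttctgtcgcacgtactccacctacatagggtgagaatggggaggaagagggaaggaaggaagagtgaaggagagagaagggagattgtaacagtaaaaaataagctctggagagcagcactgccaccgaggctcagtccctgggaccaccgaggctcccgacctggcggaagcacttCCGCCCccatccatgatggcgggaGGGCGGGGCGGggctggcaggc
Slc39a11 (chr11:113650093-113650342, minus strand): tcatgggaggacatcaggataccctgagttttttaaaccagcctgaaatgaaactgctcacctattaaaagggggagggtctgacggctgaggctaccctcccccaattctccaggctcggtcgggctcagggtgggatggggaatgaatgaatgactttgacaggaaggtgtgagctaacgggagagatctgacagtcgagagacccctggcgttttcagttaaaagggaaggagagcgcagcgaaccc

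The Abca5 window held 4 matches to GGGCGG and was 69.2% G and C with 25 CG dinucleotides, against medians of 52.4% and 6 over all 32851 windows. The Cog1 window held 3 matches, of which 2 share a base and run together in the capitals, at 59.6% G and C. The Slc39a11 window held none at 53.2%, while the window of its nearer start held 1. Each of the 7 genes had a match in 1 of its windows. Over all windows of this length, 32.7% held GGGCGG on either strand. The SOX-type motifs ACAAAG and AACAAT were found in 16.5% and 9.42% of all windows, and among the members each in 1 window of Map2k6, a gene with 3 start sites. The letters AGAACA, which form one arm of the androgen response element, were found in 16.1% of all windows and among the members in 1 window of Map2k6. The TATA motif TATAAA was found in 12.4% of all windows and in 1 window each of Map2k6 and Kcnj16. These motifs were read on both strands, and a match describes letters only.

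Values are log2 expression as deposited, so that a difference of 1 is a doubling. Array medians lay between 5.11 and 5.27, and the median over 23 background controls was 3.19. Sox9 itself, the targeted gene, fell in both sexes. Where its probes lie relative to the floxed exons is not given in the sources used here, so the signal left in knockouts cannot be read as intact or recombined transcript. Male controls read 9.33 ± 0.21 and male knockouts 8.26 ± 0.14 (SD, n = 6 each), and female controls 8.89 ± 0.11 and female knockouts 7.89 ± 0.09 (SD, n = 5 each). The groups did not overlap in either sex, with limma adjusted p of 1.06e-07 and 2.31e-06. Shh, at whose locus Cre lies, also fell, by 0.45 in males and 0.56 in females (limma adjusted p = 0.00879 and 0.0129). The part of the Shh allele with Cre in this fall cannot be told apart from that of Sox9 here. The 8 epithelial markers, Epcam, Cdh1 and keratins among them, averaged 11.31 to 11.48 on all arrays, and bladder urothelium markers (uroplakins) averaged 10.87 to 11.75. Mesenchyme markers averaged 6.99 to 7.41 on 21 arrays and 8.13 on male control 6, which also had the highest smooth muscle mean (7.21). Xist lay between 4.21 and 4.57 on the male and between 11.56 and 11.93 on the female arrays. In bulk tissue, fewer cells of a type and less RNA per cell cannot be told apart.

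Abca5, a member of the ABC transporter family found in lysosomal and endosomal membranes, was the flanking gene with the largest difference between genotypes. Its signal lay near the filter: it exceeded the array median on 21 of 22 arrays, with a mean at percentile 46.5 of single-symbol genes. Whether compression at this level affected its differences was not tested. Abca5 read 5.61, 5.72 and 6.00 (lowest, median and highest) in the 6 male controls and 5.88, 6.15 and 6.28 in the 6 male knockouts. All but 1 knockout lay above all controls: male knockout 4 (5.88) fell below male control 5 (6.00). The means were 5.74 ± 0.14 and 6.13 ± 0.13 (SD, n = 6 each), a difference of 0.38 on the log2 scale (SE 0.082) or 1.31-fold. With limma's moderated test over 19067 genes this gave an adjusted p of 0.0524, which did not pass the threshold of 0.05 (95% interval 0.21 to 0.55, not adjusted for the number of genes). By p it was gene number 39 of the male comparison, in which 38 genes passed.

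In females the Abca5 values were 5.21, 5.47, 5.50, 5.23 and 5.47 in controls 1 to 5, and 5.46, 5.38, 5.31, 5.78 and 5.58 in knockouts 1 to 5. The groups overlapped, with 2 of 5 knockouts above the highest control. The means were 5.38 ± 0.14 and 5.50 ± 0.18 (SD, n = 5 each), and the difference of 0.12 (SE 0.0898, 95% interval -0.06 to 0.31) did not pass (adjusted p = 1). The male difference exceeded the female by 0.26 (SE 0.122, 95% interval 0.01 to 0.51), and this difference between the sexes did not pass over all genes (adjusted p = 0.997). Averaged over the sexes the difference was 0.25 (SE 0.0608, adjusted p = 0.103).

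The male value of Abca5 rested on single arrays for its side of the threshold, though not for its direction. It passed without male control 5 (0.44, adjusted p = 0.0157) or male knockout 4 (0.43, adjusted p = 0.0172), and with the trend and robust options of eBayes (0.38, adjusted p = 0.0472). It did not pass under the other 17 of 20 alternatives in which it was tested, where the difference was 0.35 to 0.39. The average over the sexes likewise passed only without 1 of those 2 arrays (0.28 in both cases, adjusted p = 0.0359 and 0.0423) of 29 alternatives. Leaving out male control 6 with its high mesenchyme markers gave 0.38 again (adjusted p = 0.122). The uroplakin mean ran from 11.06 to 11.45 in male controls and from 10.87 to 11.75 in male knockouts. Male knockout 4, the lowest for Abca5, had the highest uroplakin mean and male knockout 6, the highest for Abca5, the lowest. The part of urothelial cells in the Abca5 values was not tested.

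**Figure D1:**
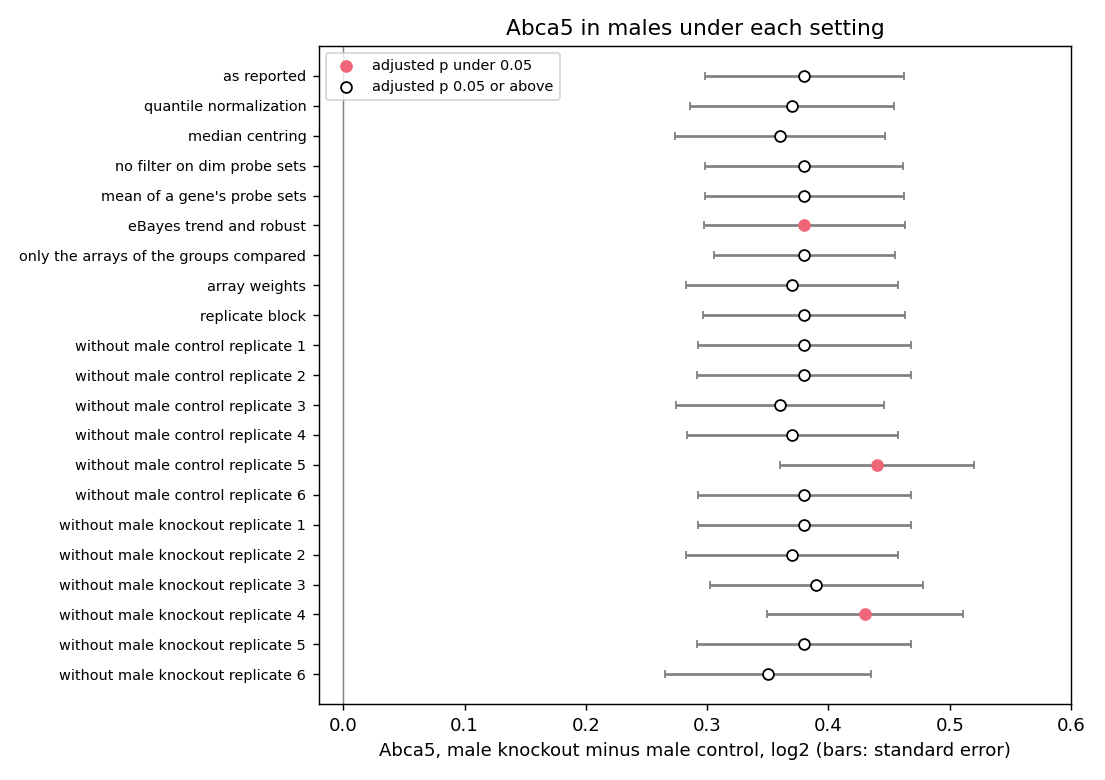
Difference of Abca5 between male knockouts and male controls (x axis, log2, bars show the standard error) under the reported and each other setting (y axis). All values lie between 0.35 and 0.44, and 3 of them pass an adjusted p of 0.05 (filled points).

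The clearest difference of Abca5 was between the sexes. Every male array lay above every female array of the same genotype, in controls 5.61 at least against 5.50 at most and in knockouts 5.88 against 5.78. Males exceeded females by 0.36 in controls (SE 0.086, 1.29-fold, adjusted p = 0.00895) and by 0.63 in knockouts (SE 0.086, 1.54-fold, adjusted p = 2.63e-05). Both calls held in all 19 alternatives in which Abca5 was tested, with differences of 0.31 to 0.40 and of 0.58 to 0.70. Abca5 was the 1 flanking gene called in each sex comparison, of 5 tested, where 6.94% of all genes tested were called in controls and 7.2% in knockouts. It was also the 1 flanking gene whose sexes separated without overlap, as 5.64% and 5.83% of all genes tested did. At an unadjusted p under 0.05 stood Abca5 in controls (19.1% of all genes tested) and 3 of 5, Abca5, Slc39a11 and Sstr2, in knockouts (17.2%). The order of its group means was male knockout, male control, female knockout and female control. Male controls and female knockouts, next to each other in this order, overlapped (5.61 to 6.00 and 5.31 to 5.78), as did both female groups. Sox9 was likewise higher in males without overlap, by 0.44 in controls and 0.37 in knockouts (limma adjusted p = 0.0016 and 0.00704). So was Shh, by 0.47 and 0.58 (limma adjusted p = 0.000727 and 6.04e-05).

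**Figure D2:**
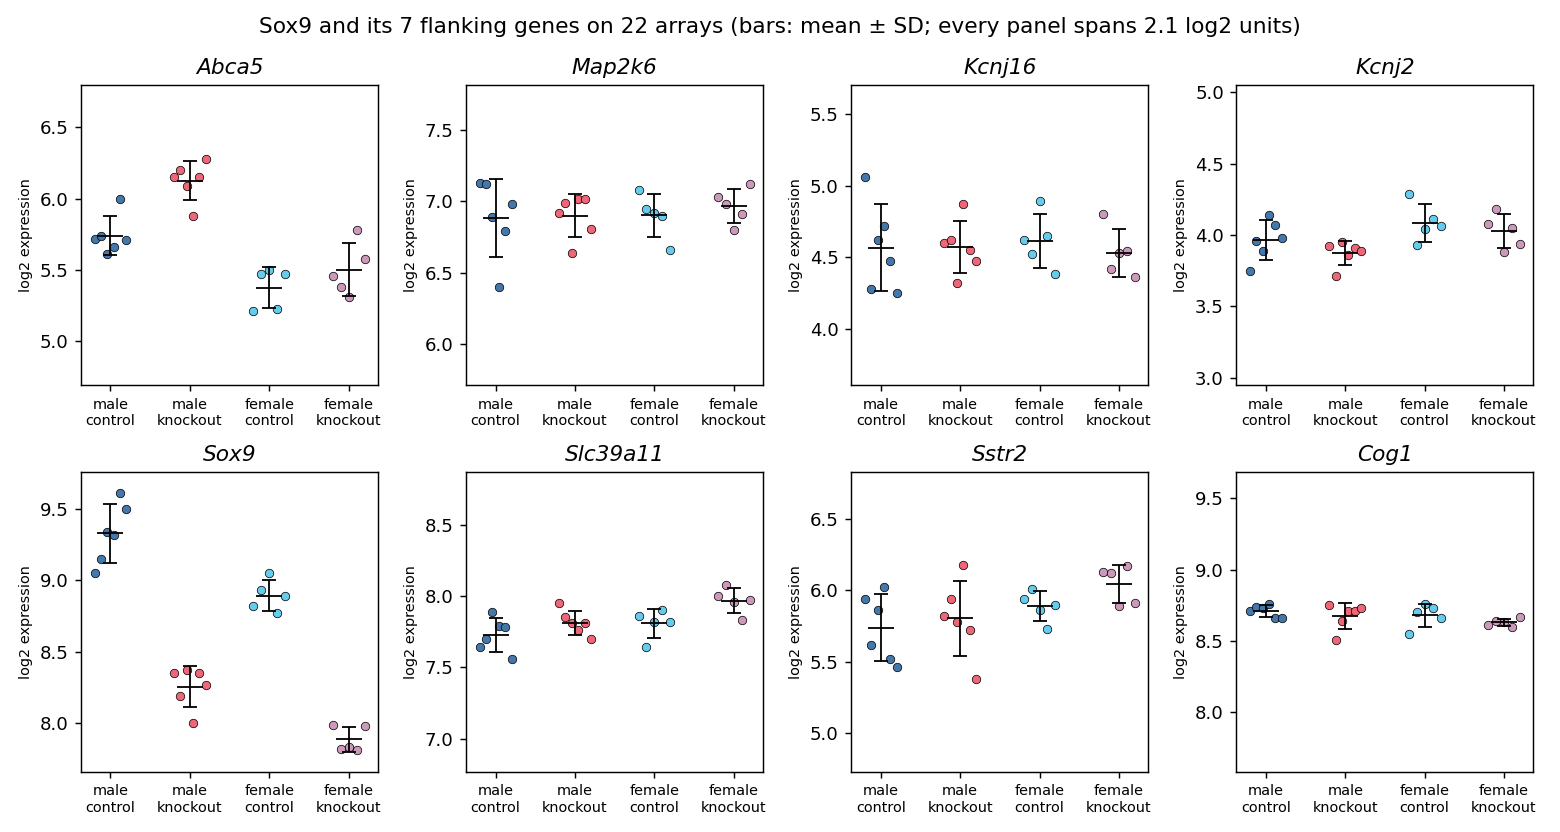
Log2 expression (y axis) of Sox9 and its 7 flanking genes on each of 22 arrays by group (x axis), with mean and SD, every panel spanning the same number of log2 units. Sox9 separates the genotypes in both sexes, and Sox9 and Abca5 each separate the sexes in both genotypes. The separation of Sox9 is narrow in controls, where the lowest male and highest female values both round to 9.05.

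Map2k6, the kinase that phosphorylates p38 MAP kinases, gave no difference between genotypes that passed. It lay between 6.4 and 7.13 on the 22 arrays, with the lowest and the highest value both in male controls. Group means ran from 6.88 ± 0.27 in male controls to 6.97 ± 0.12 in female knockouts. Knockouts differed from controls by 0.02 in males (95% interval -0.19 to 0.23, adjusted p = 0.988) and by 0.07 in females (-0.17 to 0.30, adjusted p = 1).

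Kcnj2 and Kcnj16 encode inward rectifier potassium channels, the first carrying current by itself and the second mainly as a partner of other subunits. Both were dim. Neither exceeded the median of its array on any of 22 arrays, so that they did not pass the filter and were tested only in a fit without it. Kcnj2 ranged from 3.71 to 4.29 and Kcnj16 from 4.25 to 5.06, with the highest Kcnj16 value on male control 1. The knockout minus control difference of Kcnj2 was -0.09 in males (95% interval -0.23 to 0.05) and -0.06 in females (-0.21 to 0.09), with adjusted p of 0.934 and 1. Kcnj16 differed by 0.00 in males (-0.24 to 0.25) and by -0.08 in females (-0.35 to 0.18), each with adjusted p of 1. At such low signal an array compresses differences, so these intervals cover the measured signal only.

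Slc39a11, a zinc transporter of the ZIP family, was the nearest protein-coding neighbour of Sox9 on the other side. It read 7.56, 7.74 and 7.89 (lowest, median and highest) in male controls and 7.70, 7.81 and 7.95 in male knockouts. In females the controls 1 to 5 read 7.86, 7.64, 7.82, 7.90 and 7.82 and the knockouts 1 to 5 read 8.0, 8.08, 7.96, 7.83 and 7.97. In females 4 of 5 knockouts lay above all controls, while the male groups overlapped widely. The differences were 0.08 in males (SE 0.0578, adjusted p = 0.892) and 0.16 in females (SE 0.0633, 1.12-fold, adjusted p = 0.863), and neither passed. Averaged over the sexes the difference was 0.12 (SE 0.0429, 95% interval 0.03 to 0.21), with an unadjusted p of 0.00889 and an adjusted p of 0.428. The uroplakin mean was 11.16 in female controls and 11.49 in female knockouts, and its part in the female difference was not tested.

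Sstr2, a somatostatin receptor coupled to inhibitory G proteins, varied more between arrays of a group than between genotypes in males. Male controls ran from 5.46 to 6.02 and male knockouts from 5.38 to 6.18. Female controls ran from 5.73 to 6.01 and female knockouts from 5.89 to 6.17. The differences of 0.06 in males (95% interval -0.16 to 0.29) and 0.16 in females (-0.09 to 0.40) had adjusted p of 0.96 and 1. The male minus female difference in knockouts was -0.24 (SE 0.114), which did not pass (adjusted p = 0.265).

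Cog1, a subunit of the conserved oligomeric Golgi complex that tethers vesicles to the Golgi, was the steadiest of the 7. All 22 arrays lay between 8.51 and 8.76. The genotype differences were -0.04 in males (SE 0.0438, 95% interval -0.13 to 0.05) and -0.05 in females (SE 0.048, -0.15 to 0.05), with adjusted p of 0.933 and 1. Set beside Slc39a11, whose beginning it overlaps in the sequences above, the female differences were -0.05 and 0.16. The difference between both genes was not tested. After the group means were subtracted, both genes correlated at r = 0.07 over the 22 arrays.

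Of the 5 flanking genes tested, 0 were called in males and 0 in females by limma. At an unadjusted p under 0.05 the count was 1 in each sex, Abca5 in males and Slc39a11 in females. On the average over the sexes 0 were called (0.246% of all genes tested) and 2, Abca5 and Slc39a11, had an unadjusted p under 0.05 (7.19%). For the difference between the male and the female genotype effect 0 were called (0.00524%) and 1, Abca5, had an unadjusted p under 0.05 (4.04%). Over all genes tested, 0.199% were called in males and 0.0315% in females, and 6.29% and 5.47% had an unadjusted p under 0.05. Over the 7 genes without the filter, 5 read higher and 2 lower in male knockouts, with a median of 0.02 against 0.01 for all genes. In females 4 read higher and 3 lower, with a median of 0.07 against 0.00. In neither sex did the knockout and control arrays of any of the 7 genes separate without overlap, where 0.42% of all genes tested did so in males and 1.4% in females.

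**Figure D3:**
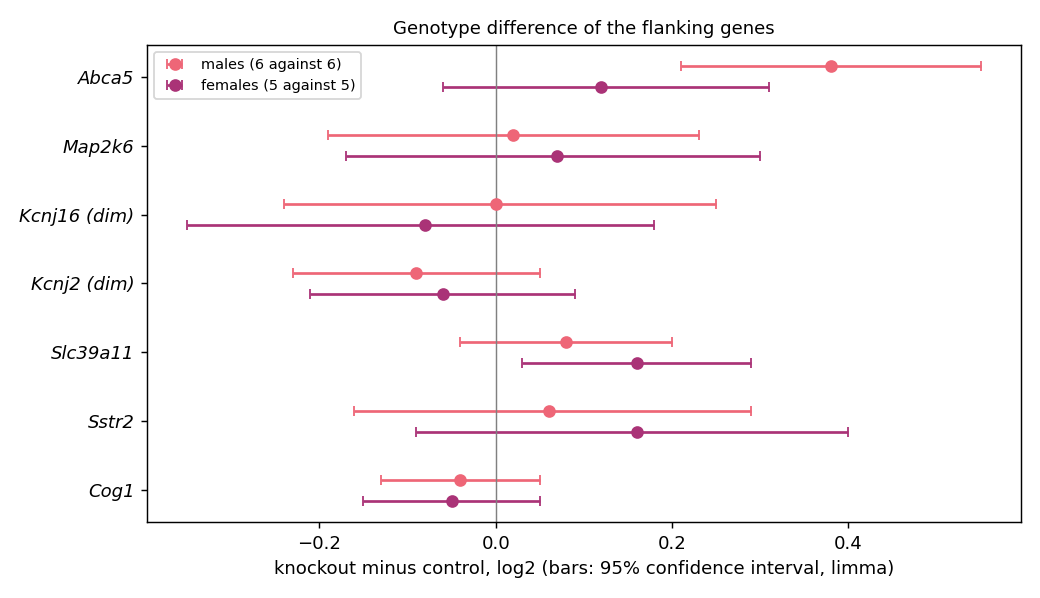
Difference between knockouts and controls (x axis, log2, bars show 95% confidence intervals from limma, not adjusted for the number of genes) for the 7 flanking genes in males and females. The male interval of Abca5 (0.21 to 0.55) and the female interval of Slc39a11 (0.03 to 0.29) lie above 0, and the others include it.

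**Figure D4:**
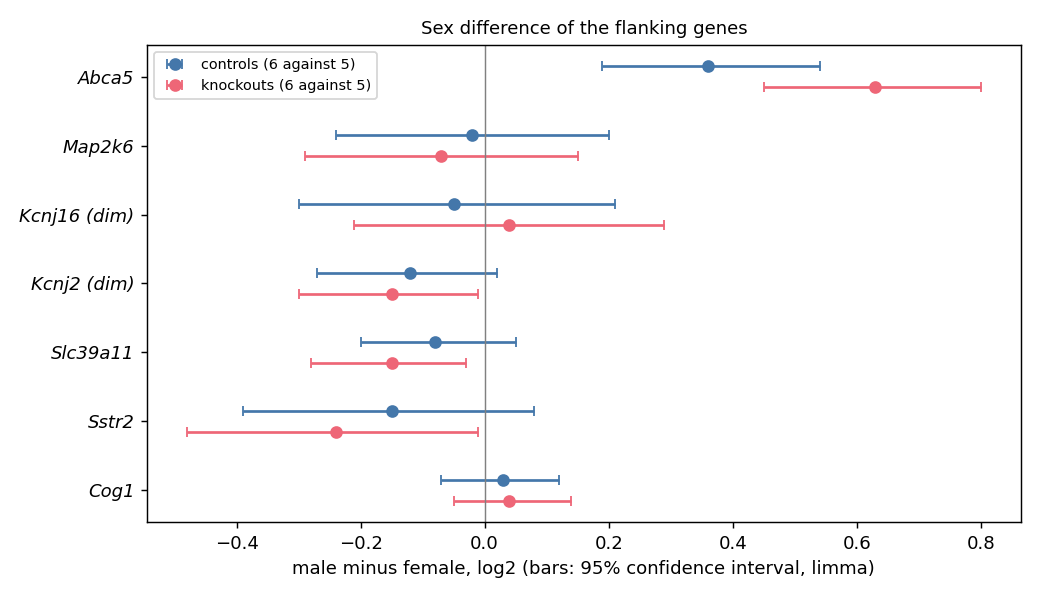
Difference between males and females (x axis, log2, bars show 95% confidence intervals from limma, not adjusted for the number of genes) for the 7 flanking genes in controls and knockouts. Abca5 was higher in males of both genotypes (0.36 and 0.63), and the knockout values of Kcnj2, Slc39a11 and Sstr2 (-0.15, -0.15 and -0.24) lie below 0 without passing an adjusted p of 0.05.

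The same view was widened to 15 named neighbours on each side of Sox9 in the order of the RefSeq table, without predicted genes and small RNAs. Only genes with a single-symbol probe set were counted, so genes without one may lie between them. Of these 30 genes 17 passed the filter. By limma 0 of the 17 were called in males, in females or on the average over the sexes. Over all genes tested, the shares called in these comparisons were 0.199%, 0.0315% and 0.246%. At a size over 0.2 on the log2 scale stood 2 genes in males, Abca5 and 2610035D17Rik, and 2 in females, 2610035D17Rik and Sdk2. The share of all genes over this size is not given here. The median difference over the 30 was 0.00 in both sexes. Among these neighbours, the noncoding gene nearest Sox9 on one side, BC006965, read -0.00 in both sexes at a mean level of 4.01. The nearest on the other side, 1700012H19Rik, read -0.13 in males and 0.05 in females.

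2610035D17Rik, a long noncoding RNA gene lying between Sox9 and Slc39a11, had the smallest p on average among the neighbours outside the list. It read 8.22 to 8.49 in male controls and 7.72 to 8.39 in male knockouts, and 8.43 to 9.03 in female controls and 8.25 to 8.61 in female knockouts. The groups overlapped in both sexes. It read lower in knockouts in males (log2 difference -0.27, SE 0.103, adjusted p = 0.649) and in females (-0.33, SE 0.113, adjusted p = 0.781), and the average of -0.30 (SE 0.0767) had an unadjusted p of 0.000681 and an adjusted p of 0.135. It did not pass in any of 30 alternatives of the average (adjusted p 0.0561 to 0.284). In controls it was lower in males than in females (-0.38, SE 0.108, adjusted p = 0.0359), a call held in 10 of 20 alternatives. It was lost without male control 2, 3, 4 or 6 or without female control 1, 2 or 5 (-0.30 to -0.38), and with median centring, no filter or the arrays of both groups alone (-0.34 to -0.38). In knockouts the male minus female difference of 2610035D17Rik was -0.31 (SE 0.108), which did not pass (adjusted p = 0.0938). Of 20 alternatives, 1 passed, that without male knockout 6 (-0.37, adjusted p = 0.0414). The change of this sex difference between genotypes did not pass either (0.06, adjusted p = 0.997). Sdk2, an adhesion molecule of the immunoglobulin family, differed between genotypes by 0.23 in females (adjusted p = 0.863) and was lower in males in both genotypes (-0.55 in controls, adjusted p = 0.000119, and -0.81 in knockouts, adjusted p = 7.81e-07).

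**Figure D5:**
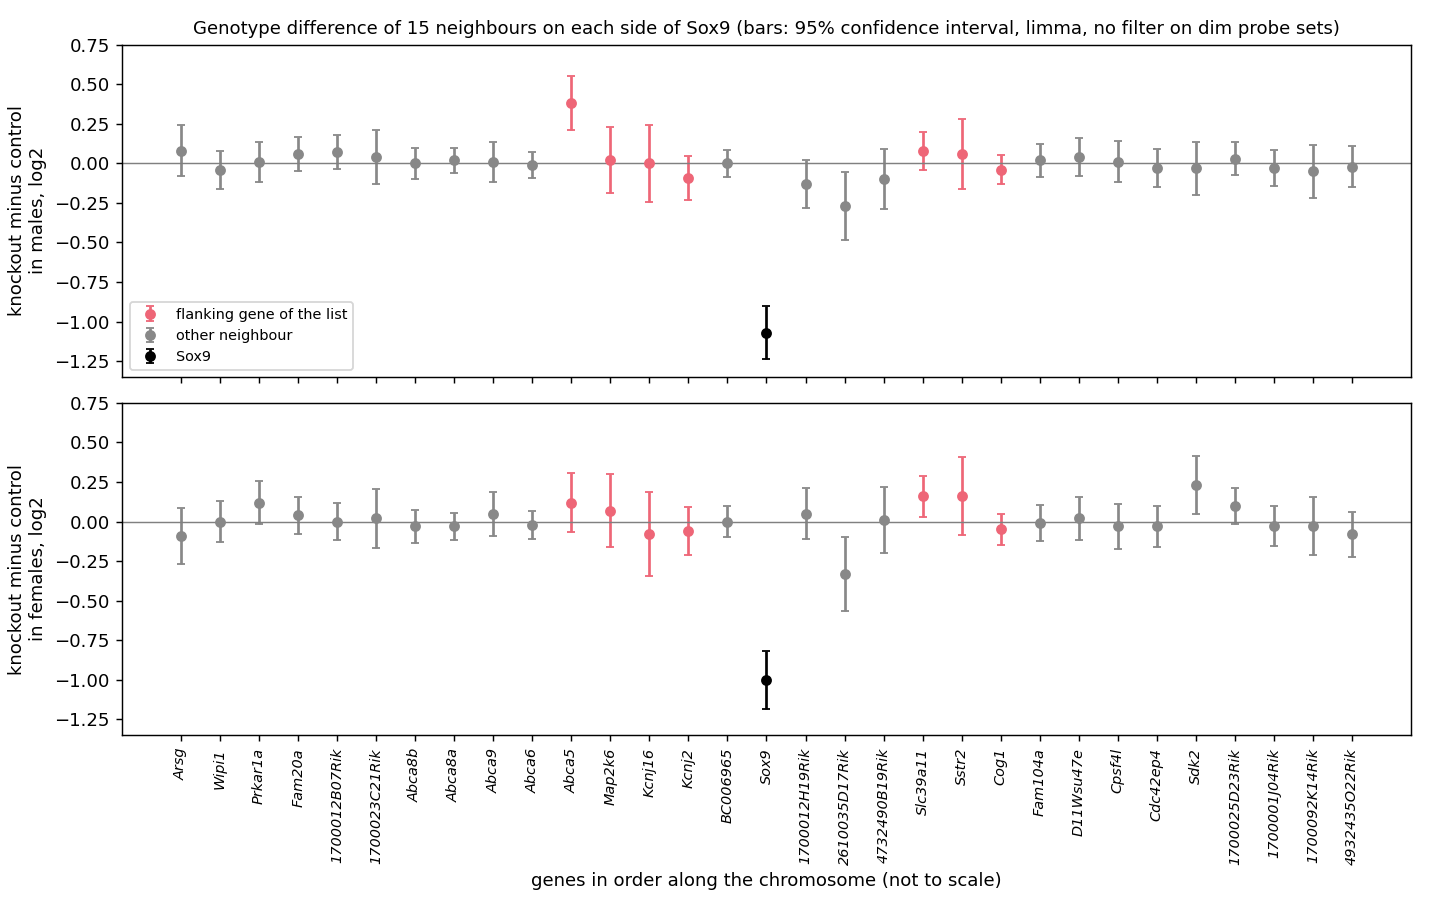
Difference between knockouts and controls (y axis, log2, bars show 95% confidence intervals from limma without the filter) for 15 neighbours on each side of Sox9 in chromosome order (x axis, not to scale), in males (top) and females (bottom). Sox9 stands at -1.07 and -1.0, and all neighbours lie between -0.33 and 0.38.

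Genes related to the flanking genes by family were read beside them. Over all genes tested, 0.199% were called between genotypes in males and 0.0315% in females. Between the sexes 6.94% were called in controls and 7.2% in knockouts. Of 5 other ABCA transporters tested, 0 were called between genotypes, with differences of -0.05 to 0.06 in males, while Abca1, which exports cholesterol from cells, was lower in males (-0.66 in controls, adjusted p = 3.24e-05, and -0.61 in knockouts, adjusted p = 6.56e-05). Of 15 other p38 pathway genes 0 were called between genotypes, and 1 was higher and 1 lower in males in each genotype, where 6.94% of all genes tested were called in controls and 7.2% in knockouts. These were the p38 kinase Mapk13, higher in males (0.33 in controls, adjusted p = 0.00352, and 0.27 in knockouts, adjusted p = 0.0154), and the phosphatase Dusp10, lower (-0.22, adjusted p = 0.0384, and -0.25, adjusted p = 0.0119). The smallest p between genotypes, averaged over the sexes, were those of Map3k20 and Mapk11. Map3k20 differed by -0.15 (limma adjusted p = 0.416) and Mapk11 by 0.22 (limma adjusted p = 0.474). Of 5 inward rectifier channels tested 0 were called between genotypes. Among them Kcnj15 read 6.65 to 6.90 in male controls and 6.99 to 7.31 in male knockouts. This was a separation without overlap, found for 0.42% of all genes tested in males. The difference of Kcnj15 was 0.27 (SE 0.0589, adjusted p = 0.0653). It was higher in males in both genotypes (0.24, adjusted p = 0.0197, and 0.40, adjusted p = 0.000107).

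The other zinc transporters, Golgi subunits and somatostatin genes gave no call between genotypes either. Of 12 other ZIP transporters 0 were called by genotype, and in controls 3 were higher and 1 lower in males (4 of 12, against 6.94% of all genes tested). In knockouts 1 was higher and 1 lower (2 of 12, against 7.2%). Called in both genotypes were Slc39a8, higher in males (0.87, adjusted p = 0.000266, and 1.02, adjusted p = 3.61e-05), and Slc39a4, the intestinal zinc importer, lower (-0.47, adjusted p = 0.000799, and -0.64, adjusted p = 1.78e-05). Slc39a7 and Slc39a10, higher in male controls (0.23 and 0.19), read 0.02 and 0.05 in knockouts and did not pass there, and the test of the change in sex difference between genotypes did not pass (adjusted p = 0.997 for each). Of 6 other subunits of the Golgi complex 0 were called in any comparison, with male differences of -0.04 to 0.12. Of 4 other genes of the somatostatin system 0 were called, with male differences of 0.03 to 0.12.

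Genes whose array-to-array pattern was most like that of a member were found by Pearson r over the 22 arrays after the group means were subtracted, so that shared genotype or sex did not enter. All values come from the same arrays and share their signal level and dissection. For Abca5 they were Fmo2 (0.72), Camk2b and Zfp809 (0.70 each), and for Slc39a11 Snrnp35 (0.79), Gal3st1 (0.78) and Bmyc (0.76). For Sstr2 they were Emx2 (0.90), Dcdc2a (0.85) and Pax2 (0.82), and for Kcnj16 Cdh16 (0.88), Hoxb9 (0.85) and Map3k21 (0.81). Map2k6 was most like Zscan21 (0.85), Oma1 and Eci2 (0.82 each), Cog1 most like Acbd4 (0.81), Srsf9 and Mrpl54 (0.79 each), and Kcnj2 most like Gm16350 (0.81), Otop1 (0.76) and Ranbp3 (0.75). Sox9 was most like Ly6c2 (0.83), Gpd1 and Etv5 (0.80 each), so that no neighbour was among the genes named. Among the members, the highest value was that of Kcnj16 with Sstr2 (0.59), and with Sox9 the values ran from -0.48 for Sstr2 to 0.46 for Abca5.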

How the data were processed

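RNA was hybridised to whole-transcript arrays. The authors deposited log2 values per transcript cluster, and the method of background correction, normalization and summarization is not given in the sources used here. Arrays carry no read depth, so their number limits the precision. Probe sets with 1 symbol in the platform table (30604, of which 827 symbols were updated through gene IDs, beside 2146 with several) were kept if above the array median on at least 5 arrays, and the probe set with the highest mean stood for a gene. limma 3.58.1 (R 4.3.3) fitted 4 group means over all 22 arrays (18 residual degrees of freedom, default eBayes), with Benjamini-Hochberg adjustment over 19067 genes and a threshold of 0.05. The 2 dim genes were fitted without the filter. Intervals are 95% and two-sided.

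The members and lists were chosen with earlier results of these data known. Genes named beside the markers are the members, Sox9, Shh, the noncoding genes nearest Sox9, and the 3 most alike by r. Neighbours and relatives are named if called or of small p, but not every one chosen by small p is printed. No batch was given and no covariate fitted. The programs were tested on simulated data. RefSeq tables (GRCm38.p6) gave names, gene order and promoters. Plots used matplotlib 3.10.9 (Python 3.11.15).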

Additional observations from a re-analysis of the deposited data

Results flagged for a closer look

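Of 32 sets of values (Sox9 and 7 flanking genes in 4 groups), 1 had an array that stood far from the others of its group by Dixon's criterion: Abca5 on male control 5 read 6.00, where the other male controls lay between 5.61 and 5.74. Its gap of 0.664 of the range of the group exceeded the critical value of 0.625. About 1 in 20 such sets is marked by chance. Without this array the male difference of Abca5 was 0.44 (limma adjusted p = 0.0157). The cause was not tested.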

How the results depend on the processing

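Replicate numbers shared by the groups gave no sign of pairing in the values. Same-numbered arrays correlated in their deviations at -0.422 to 0.277 (median -0.024, 4 of 31 pairs over 0.1). Differently numbered arrays of different groups correlated at -0.372 to 0.303 (median 0.0025, 44 of 150 pairs over 0.1). Of the 22 arrays, 4 correlated best with their own number. Such correlations cannot show whether arrays shared a litter. With the replicate block the genes called were 30 in males, 4 in females, 49 on average and 2 for the difference between the sexes, and flanking genes called stayed at 0 in each of these; the block changed no call of a flanking gene (Abca5 in males 0.38, adjusted p = 0.0964).

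Genes called in males numbered 38, and 20 with the arrays of both groups alone. In females they numbered 6, and 3 with quantile normalization, with median centring or with the arrays of both groups alone, 11 with array weights, and 2 to 6 when 1 array was left out. On average 47 were called, and 72 with array weights. For the difference between the sexes 1 was called, 0 with quantile normalization, median centring, no filter or the trend and robust options, 2 with array weights, and 0 to 2 when 1 array was left out. Flanking genes called in males numbered 0, but 1 (Abca5) with the trend and robust options and 0 to 1 when 1 array was left out, as on average (0 to 1). In the sex comparisons the count of 1 became 0 with the filter at the 75th percentile, under which Abca5 was not tested.

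Reversed directions were all of differences near 0 that passed in no setting. In males Kcnj16 (0.00) read -0.02 with quantile normalization or median centring, and Map2k6 (0.02) read -0.01 with median centring and -0.02 with array weights. Map2k6 between the sexes in controls (-0.02) read 0.02 with median centring and 0.01 with array weights, and the sex difference of the genotype effect of Cog1 (0.01) read -0.01 with median centring. Leaving out 1 array gave, in males, -0.06 to 0.10 for Kcnj16, -0.08 to 0.07 for Map2k6 and -0.01 to 0.15 for Sstr2. On average it gave -0.07 to 0.01 for Kcnj16 and -0.01 to 0.07 for Map2k6. For the difference between the sexes it gave -0.08 to 0.01 for Kcnj2, -0.15 to 0.01 for Map2k6, -0.01 to 0.05 for Cog1 and -0.01 to 0.14 for 2610035D17Rik. Between the sexes in controls it gave -0.14 to 0.02 for Kcnj16, -0.08 to 0.08 for Map2k6 and -0.00 to 0.05 for Cog1, and in knockouts -0.02 to 0.11 for Kcnj16. The causes were not tested. Low signal limits Kcnj2 and Kcnj16.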
